A study of Homo sapiens with 12 samples.

Results

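Glucose enters a cell through transporters of the SLC2A family, called GLUT proteins, and is then trapped inside by a hexokinase, which adds a phosphate to it. The end product of glycolysis, lactate, leaves through transporters of the SLC16A family, called MCT proteins. Cells choose between several forms of each: GLUT1 (SLC2A1) is the main glucose transporter of the human red cell, GLUT3 (SLC2A3) has a higher affinity for glucose and is known from neurons and platelets, hexokinase 1 (HK1) is the form of most tissues and of the red cell, and hexokinase 2 (HK2) is the form induced in many tumours. The expression of 10 such genes was examined: the glucose transporters SLC2A1, SLC2A3, SLC2A6 and SLC2A8, the fructose transporter SLC2A5, the hexokinases HK1, HK2 and HK3, and the lactate transporters SLC16A1 and SLC16A3. They were chosen by name, and every probe set that the array annotation assigns to one of them was taken. This gave 15 of the 22277 probe sets on the array, for 8 of the 10 genes. The annotation used here names no probe set for SLC16A1 or SLC16A3, and both were not analysed here. Of the 15 probe sets, 2 name SLC2A14 as well as SLC2A3 and are called shared below, since SLC2A14 is a close copy of SLC2A3.

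The RNA came from K562, a human leukaemia line grown from a patient with chronic myeloid leukaemia, which carries the BCR-ABL1 fusion kinase and has erythroid features. There were 4 arrays of cells given 0.05 µM nilotinib (AMN107), 4 of cells given 0.5 µM imatinib (STI571) and 4 of cells given the solvent DMSO, all for 24 h. Both drugs inhibit the ABL kinase, and their doses differed: the labels give each as the IC50 of its drug. All groups are the same single line, and the labels do not say whether the 4 arrays of a group are separate cultures, so the p-values below reflect the spread among these arrays alone, which may be technical.

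Signals are MAS5 intensities on a linear scale. Differences are given as log2(signal + 16), which understates changes of dim probe sets, and were tested with limma over the 13329 probe sets whose mean lay above the 40th percentile, equal to a signal of about 80.6. A probe set was called at an adjusted p under 0.05. Imatinib against DMSO called 35.5% of all probe sets tested, nilotinib against DMSO 55.5% and nilotinib against imatinib 11.5%. Of the 15 probe sets, 11 lay above the filter and 4 below it. The SLC2A3 probe sets 202497_x_at and 202498_s_at are above it mainly through their DMSO arrays, so counts over the 11 are a description of these probe sets only. In bulk RNA, fewer cells of a kind and less RNA per cell cannot be told apart.

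The arrays differed by group in more than these genes. The median signal ran from 117 to 121 on DMSO arrays, from 135 to 155 on imatinib arrays and from 166 to 194 on nilotinib arrays, and the median of 27 control probe sets for bacterial transcripts was 5.60 to 8.79, 9.27 to 18.9 and 12.8 to 24.7 in the same order. Centring each array on its median moved the median of all differences from 0.10 to -0.13 for imatinib, from 0.17 to -0.35 for nilotinib and from 0.06 to -0.24 between the drugs, and the share of calls that were higher from 56.3% to 26.7%, from 61.2% to 17.6% and from 42.2% to 2.84%. Quantile normalization moved the share for nilotinib to 47.5%, and cyclic loess to 48.5%. The actin control probe sets had a 3'/5' ratio over 3.5 on imatinib arrays 5 and 6 and nilotinib arrays 1 and 2, called arrays of high actin ratio here. Of 9 erythroid markers, 7 had a probe set naming that gene alone, all above the filter, and their summed signal spanned 38940 to 44310 on DMSO arrays, 67380 to 74240 on imatinib arrays and 74740 to 82880 on nilotinib arrays. None of 7 markers of monocytes and granulocytes lay above the filter. For T cells 3 of 4 did, for B cells 2 of 4, for megakaryocytes 1 of 4 and for fibroblasts 2 of 5, and no list outside the erythroid one summed to over 773 on any array. Some of these sums rose too: fibroblast markers had 307.9 to 566 on DMSO and 700.1 to 772.6 on nilotinib arrays. B cell markers had 153.9 to 263 and 273.7 to 674.8, and monocyte and granulocyte markers 196.7 to 211.3 and 255.1 to 739.2. T cell and megakaryocyte sums with nilotinib overlapped those with DMSO, as did every such list with imatinib. The part of these shifts in the results was not tested.

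The promoters of HK2 and SLC2A1 are shown because these genes moved in opposite directions under both drugs. The sequences are the 250 bases before the annotated start, 5′ to 3′ on the gene's strand, from RefSeq (GRCh38.p14), whose table matched 8 of the 10 genes with 19 windows. SLC2A3 and SLC16A1 are not among them. Capitals mark matches on either strand to CACGTG, the E-box letters known for MYC with MAX, and to ACGTG or GCGTG, the core letters known for the hypoxia factors. Every CACGTG also holds ACGTG on both strands.
HK2, chr2:74833877-74834126, plus strand: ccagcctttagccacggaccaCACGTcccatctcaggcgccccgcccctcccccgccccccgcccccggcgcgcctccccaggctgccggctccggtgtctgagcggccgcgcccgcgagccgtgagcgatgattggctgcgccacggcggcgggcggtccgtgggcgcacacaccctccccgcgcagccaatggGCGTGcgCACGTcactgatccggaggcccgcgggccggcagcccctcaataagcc
HK2, chr2:74834920-74835169, plus strand: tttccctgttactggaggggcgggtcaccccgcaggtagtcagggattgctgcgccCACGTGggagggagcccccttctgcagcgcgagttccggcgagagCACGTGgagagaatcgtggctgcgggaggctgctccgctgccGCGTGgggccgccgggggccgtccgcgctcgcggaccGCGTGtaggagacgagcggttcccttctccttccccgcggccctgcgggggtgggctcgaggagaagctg
SLC2A1, chr1:42958869-42959118, minus strand: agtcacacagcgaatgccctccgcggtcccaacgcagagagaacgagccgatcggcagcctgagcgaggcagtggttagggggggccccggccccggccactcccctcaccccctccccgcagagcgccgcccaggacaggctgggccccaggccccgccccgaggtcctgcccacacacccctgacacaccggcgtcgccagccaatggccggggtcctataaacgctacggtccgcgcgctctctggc

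The downstream HK2 window holds CACGTG at 2 places, and no other window of the 8 genes holds it. Over all 35116 windows of this length in the table, 6.34% hold CACGTG, 18.5% ACGTG and 32.2% GCGTG. The 1 window with CACGTG among the 19 is close to the first of these shares, so it does not set these genes apart. The upstream HK2 window holds 2 matches to ACGTG and 1 to GCGTG. The SLC2A1 window holds none of the 3 motifs. Of the 7 HK1 windows, 1 holds GCGTG and none holds ACGTG. The SLC2A6 window holds 3 matches to GCGTG, and some SLC16A3 windows hold ACGTG or GCGTG. A match is a description of these letters, and no binding was measured.

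**Figure D1:**
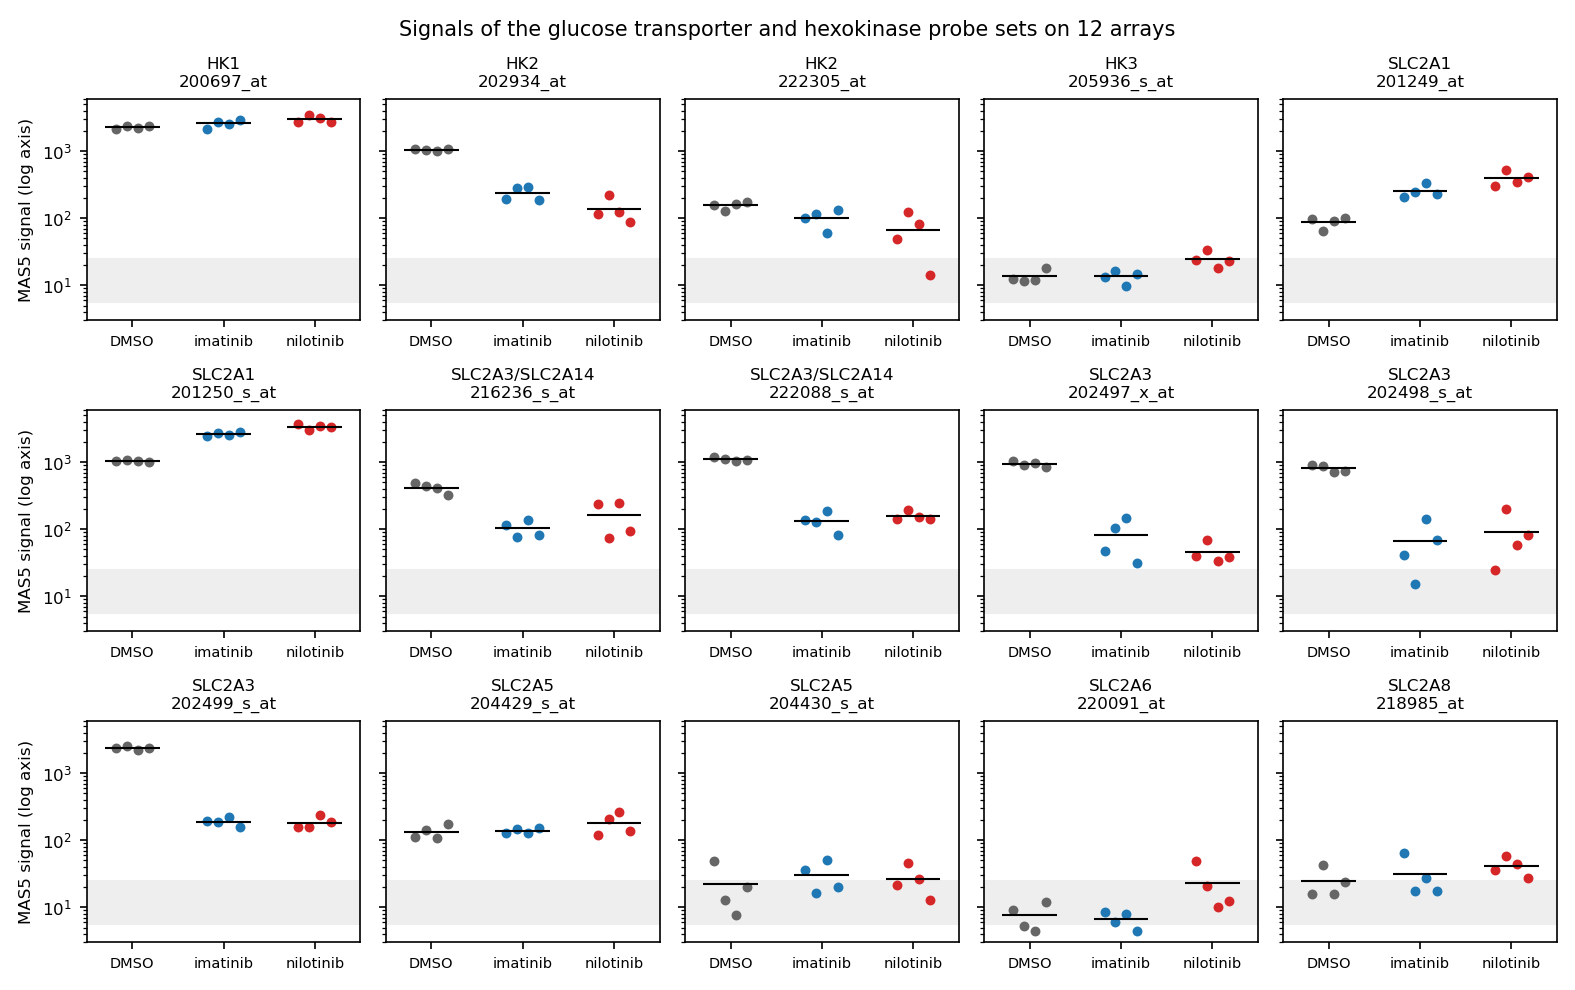
MAS5 signal (log axis) of all 15 probe sets on each array, by group; points are arrays, bars are means of 4 arrays, and the grey band is the range over arrays of the median of the bacterial controls (5.60 to 24.7). The SLC2A3 probe sets drop with both drugs, both SLC2A1 probe sets sit above their DMSO arrays, and HK3, SLC2A6, SLC2A8 and 204430_s_at of SLC2A5 lie near the band in every group.

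Among the glucose transporters, SLC2A3 fell and SLC2A1 rose with both drugs. The brightest SLC2A3 probe set, 202499_s_at, had signals of 2341, 2495, 2237 and 2408 on the DMSO arrays. With imatinib it had 193, 185, 220 and 159, and with nilotinib 156, 158, 235 and 184. Every drug array lay far below every DMSO array, and the arrays of the drugs overlapped each other. The log2 difference was -3.55 ± 0.14 (SE) for imatinib (adjusted p = 7.21e-13) and -3.60 ± 0.14 for nilotinib (adjusted p = 3.66e-13). Among all 13329 probe sets the imatinib difference was number 4 from the lowest. The signal was below the brightest bacterial control of its array on 0 of 4 imatinib and 2 of 4 nilotinib arrays, so background may limit the size of the nilotinib difference. That control is the highest of 27 and a strict mark. On nilotinib array 2 it was 268, above the median signal of that array (193.7). The imatinib signals lay within the range of the nilotinib ones, so the same caution holds for imatinib.

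The other SLC2A3 probe sets went the same way at lower signals. The probe set 202498_s_at had 904, 871, 724 and 739 with DMSO, 41.9, 15.3, 141 and 68.4 with imatinib, and 24.3, 202, 58.9 and 82.1 with nilotinib. The fitted log2 differences were -3.55 ± 0.45 with imatinib and -3.20 ± 0.45 with nilotinib. The arrays of either drug spread widely, while the DMSO arrays lay close together. The probe set 202497_x_at, of a kind that can bind related transcripts, had 1024, 902, 957 and 847 with DMSO, 47.6, 105, 147 and 31.2 with imatinib, and 39.8, 69.8, 33.4 and 38.3 with nilotinib. Its fitted differences were -3.43 ± 0.32 and -3.98 ± 0.32. The brightest of the bacterial controls reached 90.9 to 118.8 on imatinib arrays and 121.5 to 268 on nilotinib arrays. Both dimmer probe sets were below that of their own array on 3 of 4 imatinib and 4 of 4 nilotinib arrays, so their differences give a direction and not a size. Detection calls were not used here, and how far below these values the transcript went was not measured.

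The shared probe sets, which cannot tell SLC2A3 from SLC2A14, fell as well. On 222088_s_at the DMSO arrays had 1183, 1107, 1036 and 1074, the imatinib arrays 137, 129, 186 and 82.3 and the nilotinib arrays 143, 191, 151 and 140, with log2 differences of -2.95 ± 0.19 and -2.70 ± 0.19. On 216236_s_at the DMSO arrays had 496, 433, 411 and 321, the imatinib arrays 114, 77.2, 139 and 82.7 and the nilotinib arrays 240, 73.8, 249 and 94.7, with -1.87 ± 0.31 and -1.40 ± 0.31. The nilotinib arrays of 216236_s_at fell into a brighter and a dimmer pair, and all 4 were below the DMSO arrays. They were below the brightest bacterial control on 1 and 3 of 4 imatinib arrays, in this order, and on 2 of 4 nilotinib arrays each.

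SLC2A1 had signals of 1026, 1083, 1028 and 1020 with DMSO on its brighter probe set, 201250_s_at. With imatinib these were 2459, 2732, 2576 and 2774, and with nilotinib 3752, 3002, 3406 and 3364. The 3 groups did not overlap, in the order DMSO, imatinib, nilotinib. The means were 1039 ± 29.3, 2635 ± 145 and 3381 ± 307 (SD, n = 4 each), a 2.54-fold and a 3.25-fold rise. On the log2 scale SLC2A1 rose by 1.33 ± 0.08 with imatinib (adjusted p = 1.47e-10) and by 1.68 ± 0.08 with nilotinib (adjusted p = 3.29e-12). The erythroid markers, whose cells use GLUT1, had a higher summed signal on the same drug arrays, and their part in this was not tested. The background is 20.0% of probe sets called higher with imatinib and 33.9% with nilotinib.

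The dimmer SLC2A1 probe set, 201249_at, had 98.8, 65.4, 90.9 and 102 with DMSO, 207, 246, 332 and 231 with imatinib, and 304, 531, 348 and 413 with nilotinib. It rose by 1.35 ± 0.21 and 1.96 ± 0.21, close to the values of the brighter one. All drug arrays were above all DMSO arrays, and 1 nilotinib array (304) lay below the highest imatinib array (332).

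Of the remaining transporters, SLC2A5 showed no call. Its probe set 204429_s_at had 113, 142, 108 and 175 with DMSO, 127, 149, 128 and 152 with imatinib and 119, 204, 261 and 136 with nilotinib, and all 3 groups overlapped. The differences were 0.06 (95% interval -0.47 to 0.60, adjusted p = 0.882) and 0.34 (-0.19 to 0.88, adjusted p = 0.261), and both turned negative under all 3 other scalings tried. Its other probe set, 204430_s_at, lay below the filter, between 7.78 and 48.4 on DMSO arrays, 16.6 and 50.9 on imatinib arrays and 12.8 and 46.3 on nilotinib arrays.

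SLC2A6 (GLUT6) and SLC2A8 (GLUT8), transporters held mostly on vesicles inside the cell, were below the filter. SLC2A6 had 9.12, 5.22, 4.37 and 11.9 with DMSO, 8.41, 6.09, 8.03 and 4.42 with imatinib and 48.6, 20.6, 10.1 and 12.3 with nilotinib. SLC2A8 ranged from 15.6 to 42.4, 17.6 to 64.3 and 27.8 to 59.2. These levels are close to those of the bacterial controls, which rose in the same order of groups, and their part in these values was not tested.

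**Figure D2:**
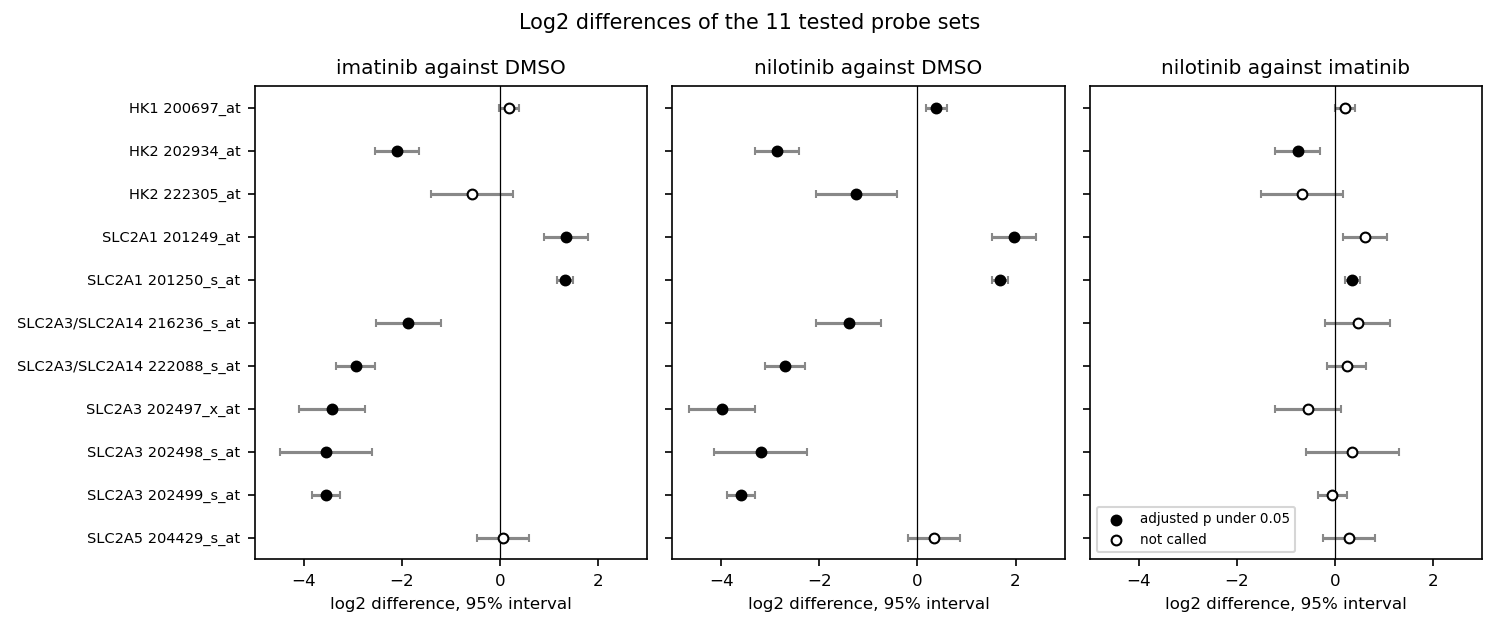
Log2 difference (signal + 16) of the 11 tested probe sets in each comparison, with 95% intervals; filled points had an adjusted p under 0.05. SLC2A3 and HK2 lie left of 0 and SLC2A1 right of 0 with both drugs, and between the drugs 1 probe set each of SLC2A1 and HK2 was called.

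Among the hexokinases, HK2 fell with both drugs, and HK1 was called higher with nilotinib. HK2, the inducible form that binds to mitochondria, had signals of 1077, 1048, 1016 and 1076 with DMSO on 202934_at. With imatinib it had 191, 278, 292 and 187, and with nilotinib 117, 225, 123 and 86.7. All drug arrays were below all DMSO arrays, and 1 nilotinib array (225) lay among the imatinib arrays. The log2 difference was -2.11 ± 0.22 with imatinib (adjusted p = 3.91e-07) and -2.87 ± 0.22 with nilotinib (adjusted p = 3.77e-09). The mean signal fell 4.44-fold with imatinib. No fold is given for nilotinib, since 3 of its 4 arrays were below their brightest bacterial control, against 0 of 4 imatinib arrays. The second HK2 probe set, 222305_at, was dim: 157, 126, 163 and 173 with DMSO, 100, 114, 59.98 and 133 with imatinib, and 49.1, 123, 81.1 and 14.05 with nilotinib. It was called lower with nilotinib (-1.25 ± 0.39, adjusted p = 0.0126) and not with imatinib (-0.57 ± 0.39, adjusted p = 0.280), where 1 array (133) overlapped the DMSO arrays. The nilotinib difference was -0.83 (adjusted p = 0.0400) without nilotinib array 4, and the imatinib difference -0.38 without imatinib array 7. On this probe set 2 of 4 imatinib and 4 of 4 nilotinib arrays were below their brightest bacterial control.

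HK1, the constitutive form, had 2144, 2349, 2238 and 2333 with DMSO, 2103, 2740, 2574 and 2909 with imatinib and 2675, 3442, 3143 and 2676 with nilotinib. The imatinib arrays overlapped the DMSO arrays, and the nilotinib arrays did not. The difference was 0.18 ± 0.10 with imatinib (adjusted p = 0.177) and 0.39 ± 0.10 with nilotinib (adjusted p = 0.00302). The nilotinib call was lost, with the sign turned to -0.14 (adjusted p = 0.281), when arrays were centred on their medians. Without imatinib array 5 the imatinib difference was 0.27 and was called (adjusted p = 0.0292). HK1 has 7 start windows in the RefSeq table, among them starts of tissue forms, and the single probe set does not separate them.

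HK3, the form of white blood cells, was below the filter. It had 12.5, 11.7, 12.0 and 18.2 with DMSO, 13.5, 16.3, 9.73 and 14.8 with imatinib and 23.9, 33.7, 18.4 and 22.7 with nilotinib. All nilotinib arrays were above the others, at signals in the range of the bacterial control medians of nilotinib arrays (12.8 to 24.7) or just over it. Fitted without a filter over 22215 probe sets, none of the 4 probe sets below the filter was called in any comparison. The smallest adjusted p among them was 0.0628, for SLC2A6 with nilotinib against DMSO.

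In all, imatinib against DMSO called 2 of the 11 tested probe sets higher and 6 lower, and nilotinib against DMSO called 3 higher and 7 lower. The probe sets called higher were both of SLC2A1 and, with nilotinib, that of HK1. Those called lower were the 5 that name SLC2A3 and, with imatinib 1 and with nilotinib 2, those of HK2. Over all probe sets 15.5% were called lower with imatinib and 21.5% with nilotinib, and 36.5% and 48.5% had arrays that did not overlap, against 8 and 10 of the 11. Since 202497_x_at, 202498_s_at and 222305_at have low signals with a drug and were tested through their DMSO level, which favours a call as lower, these counts are not set against the backgrounds as a result. Both comparisons use the same 4 DMSO arrays. The calls of SLC2A1, of all SLC2A3 and shared probe sets and of 202934_at against DMSO were kept, with the same sign, under every alternative in which they were tested.

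The change was also read within arrays, where a factor common to all probe sets of an array largely cancels. A shift that differs between bright and dim probe sets does not cancel in such a ratio. The array medians and bacterial controls rose by group although the trimmed means were alike, and the part of this in the ratios was not tested. The log2 ratio of SLC2A1 (201250_s_at) over SLC2A3 (202499_s_at), with the mean of the DMSO arrays set to 0, was -0.05 to 0.07 on the DMSO arrays. It was 4.75, 4.95, 4.64 and 5.17 on the imatinib arrays and 5.63, 5.29, 4.95 and 5.25 on the nilotinib arrays. The ratio of HK1 over HK2 (202934_at) moved likewise. It lay between -0.11 and 0.06 on DMSO arrays and was 2.26, 2.13, 1.98 and 2.76 with imatinib and 3.24, 2.75, 3.41 and 3.62 with nilotinib. The drug arrays thus stood far outside the spread of the DMSO arrays in both ratios. The pairs join probe sets already described on these arrays, so the ratios are no separate support. For HK1 over HK2 the shift is mostly that of HK2 (-2.11 and -2.87), against 0.18 and 0.39 for HK1. The highest imatinib array (2.76) just passed the lowest nilotinib array (2.75) for HK1 over HK2. The size of the shift carries the possible background limit given for SLC2A3 with both drugs and for HK2 with nilotinib. The ratio's own level carries no information, since 2 probe sets do not bind alike.

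**Figure D3:**
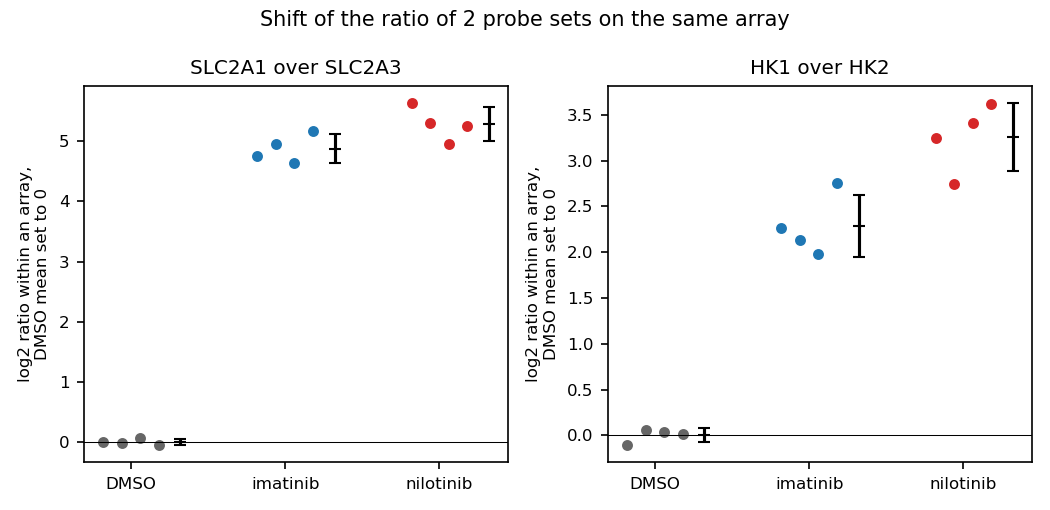
Log2 ratio of SLC2A1 over SLC2A3 and of HK1 over HK2 within each array, with the DMSO mean set to 0; points are arrays, and bars give the mean and SD of 4 arrays. Both ratios are higher on all 8 drug arrays than on the 4 DMSO arrays, with means of 4.87 and 5.28 for the transporters and 2.28 and 3.26 for the hexokinases (imatinib, then nilotinib).

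Whether the drugs, at their different doses, left these genes at different levels was read from the arrays of nilotinib against those of imatinib. SLC2A1 was higher with nilotinib by 0.35 ± 0.08 on 201250_s_at (95% interval 0.20 to 0.51, adjusted p = 0.00626), and the difference on 201249_at was 0.61 (0.16 to 1.06, adjusted p = 0.0699, and called without nilotinib array 1 or imatinib array 7 at 0.0486 and 0.0465). The first of these shrank to 0.06 (adjusted p = 0.727) with median centring, and was 0.37 among the arrays of high actin ratio (2 of each drug) and 0.34 among the others. HK2 was lower with nilotinib by -0.76 ± 0.22 on 202934_at (-1.22 to -0.31, adjusted p = 0.0298). This call was lost in 8 of 26 alternatives, among them when nilotinib array 1, 3 or 4 or imatinib array 6 or 7 was left out, with adjusted p from 0.0535 to 0.0905, and the difference was -0.46 within the arrays of high actin ratio and -1.06 within the others. The nilotinib signals are those said above to lie mostly below the brightest bacterial control.

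For SLC2A3 no difference between the drugs was called as deposited, and 202497_x_at was called lower with nilotinib under median centring (-0.85, adjusted p = 0.0411). The difference was -0.05 on 202499_s_at (95% interval -0.34 to 0.24), -0.55 on 202497_x_at (-1.23 to 0.13; -0.25 without imatinib array 7 and -0.85 without imatinib array 8) and 0.36 on 202498_s_at (-0.59 to 1.30), so the intervals leave room for differences in either direction. On 202498_s_at the sign differed between array classes, 1.14 within the arrays of high actin ratio and -0.43 within the others. HK1 had 0.21 (0.00 to 0.42, adjusted p = 0.170). In all, 1 of the 11 probe sets was called higher with nilotinib than with imatinib and 1 lower, against 4.85% and 6.65% of all probe sets, and 1 had arrays that did not overlap, against 16.7% of all.

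The genes closest in pattern were found by the root mean square difference of log2 values over the 12 arrays, each gene centred on its DMSO mean, among probe sets of other single genes. For SLC2A1 these were NINJ2 (0.08), the erythroid transcription factor gene TAL1 (0.11) and the autophagy gene ATG14 (0.11), against a median of 1.17 over the 11694 probe sets compared. For SLC2A3 they were the immediate early gene EGR1 (0.34), the stress gene TRIB3 (0.38) and the aryl hydrocarbon receptor gene AHR (0.52), against a median of 3.03. For HK2 they were AMIGO2 (0.28), the zinc transporter gene SLC39A14 (0.32) and SHMT2, an enzyme gene of mitochondrial one-carbon metabolism (0.32), against 2.20. For HK1 they were EXD2 (0.08), the deubiquitinase gene USP4 (0.10) and PRR14 (0.11), against 0.47. TAL1, with 1.23 for imatinib and 1.66 for nilotinib, is also among the erythroid markers. The median distance grows with the member's own change, since most probe sets moved less, so it is no test of a match. A small distance says that levels moved alike on these arrays and no more.

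The enzymes that follow hexokinase mostly fell. Of 18 genes of glycolysis after hexokinase, each read at its brightest probe set, 15 were above the filter. Among these, PKM, called lower with both drugs, carries a background limit given below. Imatinib called 9 lower and 2 higher, with a median log2 difference of -0.25 against 0.10 for all probe sets, of which 15.5% were called lower and 20.0% higher. Nilotinib called 10 lower and 2 higher, with -0.50 against 0.17 and backgrounds of 21.5% lower and 33.9% higher. Between the drugs 7 were lower with nilotinib and 1 higher, with -0.30 against 0.06 and backgrounds of 6.65% and 4.85%.

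At the end of the pathway, LDHA, which makes lactate from pyruvate, had a mean signal of 12574 ± 865 on DMSO arrays, 7004 ± 498 on imatinib arrays and 4712 ± 266 on nilotinib arrays (SD, n = 4 per group). The log2 differences were -0.84 ± 0.07 and -1.41 ± 0.07, and that between the drugs was -0.57 ± 0.07. LDHB, the other lactate dehydrogenase subunit gene, had -0.15 ± 0.06 (adjusted p = 0.0599) with imatinib and fell by 0.22 (SE 0.06) with nilotinib, a call lost in 2 of 26 alternatives. These values are from its brighter probe set, and the other was not called with nilotinib (-0.19, adjusted p = 0.0834). The enolase gene ENO1 had -0.93 and -1.48 with imatinib and nilotinib on its brightest probe set (1 of its 3 was called higher), and the aldolase gene ALDOA had -0.42 and -0.85. ALDOA was lower on the arrays of high actin ratio: 5565 and 5910 against 7758 and 7802 with imatinib, and 4425 and 4314 against 5961 and 5290 with nilotinib. Its imatinib difference ranged from -0.64 to -0.20 under the alternatives, and the call was kept in all 26. PGK1 had -0.18 (a call lost in 10 of 26 alternatives) and -0.50. GAPDH, which often serves as a reference gene, had -0.11 (adjusted p = 0.301) with imatinib and -0.43 with nilotinib (adjusted p = 0.000239). With nilotinib 2 of its 3 probe sets were called lower, and the 3 spanned -0.43 to -0.22.

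None of the 3 phosphofructokinase genes, whose enzyme commits the sugar to glycolysis, was called lower in the values as deposited. PFKL rose by 0.63 and 0.68 on the brighter of its 2 probe sets. It was not refitted under the alternatives, so whether these calls depend on the scaling was not tested. PFKM rose by 0.33 and 0.71, calls both lost with median centring alone of 26 alternatives (0.10 and 0.18), and PFKP had 0.15 and 0.09, neither called. With median centring these were -0.08 and -0.43, the second of which was called lower (adjusted p = 0.00204), and without the arrays of high actin ratio the imatinib difference was 0.35 and called higher (adjusted p = 0.00952). The aldolase gene ALDOC fell by 0.90 with imatinib and had -0.34 with nilotinib (adjusted p = 0.211). PKM, the pyruvate kinase gene, had -2.03 ± 0.31 and -2.60 ± 0.31 on its brightest probe set, but its other probe set was not called (-0.54 and 0.13). On the brightest, the nilotinib signals (136, 86.9, 37.3 and 56.6) were all below the brightest bacterial control of their array (159.5, 268, 121.5 and 130.2). Imatinib arrays 5 and 7 (74.2 and 90.1) were also below theirs (118.8 and 102.3). The PKM differences thus give a direction and not a size. ENO2 was below the filter.

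**Figure D4:**
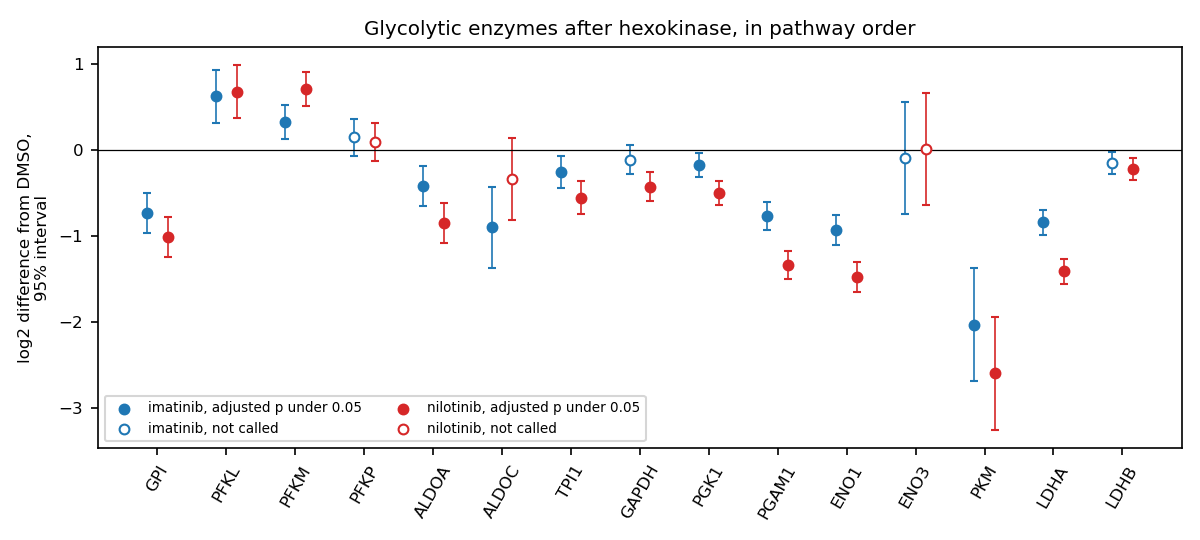
Log2 difference from DMSO (signal + 16) of the 15 tested glycolytic enzyme genes after hexokinase, in pathway order, with 95% intervals, for imatinib (blue) and nilotinib (red); filled points had an adjusted p under 0.05. PFKL and PFKM lie above 0, and GPI, ALDOA, PGAM1, ENO1, PKM and LDHA below it, with both drugs.

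Genes related to the transporters and hexokinases were mostly dim. Of 16 relatives 12 had a probe set naming that gene alone and 4 of these were above the filter. With imatinib 2 of the 4 rose, with nilotinib 3, and none fell, while 20.0% and 33.9% of all probe sets were called higher. Both counts include SLC16A8, with a mean signal of 61.0 on DMSO, 147 on imatinib and 161 on nilotinib arrays. On DMSO arrays 9 to 11, imatinib array 8 and nilotinib arrays 1 and 2 it was below the brightest bacterial control. SLC16A8 passed the filter mainly through its drug arrays. Since this favours a call as higher, these counts are not set against the shares as a result. The transporter gene SLC2A11 had 0.42 ± 0.24 (adjusted p = 0.195) with imatinib and rose by 1.20 ± 0.24 with nilotinib. SLC16A6 had no probe set naming it alone here. Of 18 regulators and partners 12 were above the filter, of which imatinib raised 3 and lowered 3, and nilotinib raised 5 and lowered 2. The shares of all probe sets called higher and lower are 20.0% and 15.5% for imatinib and 33.9% and 21.5% for nilotinib, and the nilotinib counts are close to these.

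TXNIP, whose protein binds GLUT1 and draws it from the cell surface, had the largest difference of the 12 tested in both comparisons with DMSO. Its mean signal was 325 ± 39.9 on DMSO arrays, 7045 ± 454 on imatinib arrays and 7936 ± 296 on nilotinib arrays (SD, n = 4 per group), and all 3 of its probe sets were called higher with both drugs. MYC, a transcription factor that acts on many glycolytic genes, fell, with -1.25 ± 0.10 and -1.91 ± 0.10. VDAC1, the mitochondrial channel to which hexokinases dock, had -1.04 ± 0.09 and -1.56 ± 0.09, with 2 of its 3 probe sets called. BSG, the chaperone that brings lactate transporters to the membrane, had 0.55 ± 0.23 (adjusted p = 0.0697) and 0.58 ± 0.23 (adjusted p = 0.0412), a call lost in 10 of 26 alternatives, while the imatinib difference was called in 6 of 26. BSG split by actin ratio: the imatinib arrays of high ratio had 1757 and 1491 and the nilotinib ones 1881 and 1505, near the DMSO arrays (1480 to 1574), against 2972 and 3280 and 2980 and 3221 on the others. Without the arrays of high ratio its imatinib difference was 1.02 (adjusted p = 3.25e-07). HIF1A, a hypoxia factor gene, had 0.19 (adjusted p = 0.111) and 0.29 (adjusted p = 0.0107), and both turned negative with median centring. Of the genes for the enzyme that makes fructose 2,6-bisphosphate, the activator of phosphofructokinase, PFKFB2 rose by 0.61 and 1.00, the first of these a call lost in 11 of 25 alternatives, and PFKFB3 had -0.26 and -0.14, neither called.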

How the data were processed

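The values analysed are linear MAS5 intensities from the authors (MAS5 is named in the submitters' processing notes, with no version given in the sources used here) and deposited as 1 table of 12 arrays. All 12 columns were matched by sample name, and 0 were left unmapped. Their means without the 2% tails were 500.1 to 500.2, so the values were used as deposited. Of 22277 probe sets, 62 controls were left out. The annotation given names 1 gene for 19064 of the others, several for 1043 and none for 2108.

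Values were taken as log2(signal + 16). Probe sets with a mean at or above the 40th percentile (13329) were fitted with limma 3.58.1 in R 4.3.3, 1 mean per group, 9 residual degrees of freedom and a variance trend, and Benjamini-Hochberg adjustment ran over all of them in each comparison. The code was tested on simulated data. Members, lists and named genes (fixed names, read at the brightest probe set naming that gene alone) were chosen with earlier results of these data known. The alternatives were other pseudocounts, filters, scalings, variance models and treatments of several probe sets per gene, array weights, only the groups compared, each array left out, and the arrays of high actin ratio left out. Figures used matplotlib 3.10.9 in Python 3.11.15. No genome build is named for the array, so only promoter windows have positions.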

Additional observations from a re-analysis of the deposited data

Results flagged for a closer look

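Among 45 sets of 4 arrays (15 probe sets in 3 groups), 2 had 1 array set apart from the other 3 by more than Dixon's limit, and chance gives about 1 in 20. On the SLC2A1 probe set 201250_s_at, DMSO array 10 (1083) stood above the other DMSO arrays (1020 to 1028), with a gap of 0.873 of the group's range on the log2 scale. On the HK3 probe set 205936_s_at, below the filter, DMSO array 12 (18.2) stood above the others (11.7 to 12.5), with 0.870 of the range.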

How the results depend on the processing

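No paired analysis was possible because the array numbers in the titles are not shared between groups. Of 804 values of the 11 tested probe sets under the alternatives, 768 kept their sign and side of the threshold, 9 lost a call, 5 gained one and 22 changed sign. Of 1392 values of the other named genes these numbers were 1271, 70, 28 and 23. The count of member probe sets called higher with imatinib went from 2 to 1 with a filter at the 60th percentile, with 1 probe set per gene and with probe sets averaged per gene. The counts called lower, 6 with imatinib and 7 with nilotinib, became 3 and 3, 2 and 2, and 2 and 2 under these settings, each of which tests fewer member probe sets. Between the drugs, the count called higher was 0 with median centring and 1 to 2 with 1 array left out. The count called lower was 2 with median centring, 0 with no variance trend, 0 with only the arrays of the groups compared, 0 with probe sets averaged and 0 to 1 with 1 array left out. The share of all probe sets called was 20.4% for imatinib and 6.08% between the drugs without a filter, and between the drugs 30.2% with median centring, 4.50% without the arrays of high actin ratio and 6.79% to 10.7% with 1 array left out. For the changes above not tied to fewer probe sets or arrays the cause was not tested.

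With median centring, imatinib against DMSO turned to -0.048 for HK1, -0.0392 for HIF1A, -0.0789 for PFKP and -0.17 for SLC2A5. Nilotinib against DMSO turned to -0.14 for HK1, -0.24 for HIF1A, -0.43 for PFKP and -0.18 for SLC2A5. Between the drugs that setting gave -0.0873 for HK1, -0.20 for HIF1A, -0.28 for BSG, -0.17 for PFKFB3, -0.12 for TXNIP, -0.0155 for SLC2A5 and -0.0544 for the shared 222088_s_at. Quantile normalization gave -0.16 for SLC2A5 with either drug, and between the drugs -0.0048 for SLC2A5, -0.0839 for 222088_s_at, -0.0732 for PFKFB3 and 0.0126 for LDHB. Cyclic loess gave -0.17 and -0.15 for SLC2A5 with imatinib and nilotinib, and between the drugs 0.0549 for LDHB, -0.0561 for PFKFB3 and 0.0086 for PFKP. Without the arrays of high actin ratio, the difference between the drugs was -0.0112 for BSG, -0.0246 for PFKFB3, -0.43 for 202498_s_at and 0.14 for 202499_s_at of SLC2A3. Averaging its probe sets gave 0.0522 for PKM between the drugs.

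With 1 array left out, these differences also crossed 0: between the drugs BSG ranged from -0.17 to 0.22, PFKP from -0.13 to 0.0123, 202498_s_at of SLC2A3 from -0.0702 to 0.75 and 202499_s_at from -0.17 to 0.0178. PFKFB3 with nilotinib ranged from -0.23 to 8e-04, and SLC2A5 with imatinib from -0.026 to 0.18.

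Signal over background limits what can be read from HK3, SLC2A6, SLC2A8 and 204430_s_at of SLC2A5. The same holds after treatment for SLC2A3, its shared probe sets, HK2 and the brightest PKM probe set. 4 arrays per group limit the precision.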

Other observations

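Several of the other named genes had probe sets that moved apart. ENO1 had 3 tested probe sets, of which 2 were called lower and 1 higher with both drugs, from -1.10 to 0.43 with imatinib and from -1.48 to 0.58 with nilotinib. PGK1 had 4, of which 3 were called lower with both drugs, from -0.59 to 0.14 and from -1.10 to 0.07. PKM had 2, of which 1 was called lower with both drugs, from -2.03 to -0.54 and from -2.60 to 0.13. VDAC1 had 3, of which 2 were called lower, from -1.10 to -0.07 and from -1.56 to 0.04. Those of SLC2A1 spanned 1.33 to 1.35 with imatinib and 1.68 to 1.96 with nilotinib.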
